A study of Mus musculus with 2 samples.

Results

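The 40 genes described here encode proteins of the G2 phase and of mitosis. They were taken by symbol as a list of entry kinases, spindle motors, kinetochore, checkpoint and cytokinesis genes, chosen with earlier results of these data known. All 40 were measured, among 22180 genes in all. They were read in skin from the back of male mice of the strain BALB/cAJcl, aged 7 weeks, on 2 Affymetrix Mouse Gene 2.0 ST arrays, 1 from FGF18-treated skin and 1 from a saline control. In the FGF18 group the mice had been depilated so that follicles entered growth, and 100 µg of FGF18, a fibroblast growth factor, was given into the peritoneum 6 days later in saline with heparin at 5 µg/µl, γ-rays at 6 Gy were given to the whole body 24 h after that, and skin was taken 4 h after the rays. The labels do not state depilation, irradiation, heparin or their timing for the saline control, nor how many mice gave each RNA, so FGF18 cannot be told apart from these.

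A cell enters mitosis when cyclin-dependent kinase 1, bound to its cyclins, is freed from inhibitory phosphorylation by CDC25 phosphatases. Motor and microtubule-binding proteins then build the spindle, kinetochores attach chromosomes to it, and a checkpoint holds back separation until all are attached. Genes for these proteins are transcribed mainly late in the cell cycle. In growing skin dividing cells lie chiefly in the hair matrix and the basal epidermis, and ionising radiation is known to delay entry into mitosis. In whole skin, fewer dividing cells and less RNA per dividing cell cannot be told apart.

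Intensities are the authors' normalized values, each for a transcript cluster, the group of probes that stands for a gene. Differences are FGF18 minus saline in log2(intensity + 1). With 1 array per group there was no replicate and no test, so every difference compares these 2 arrays. Separate clusters of the same gene disagreed in their differences with a standard deviation of 0.26. It was taken over 311 genes with 2 or more clusters at or above the median level of all genes. It measures disagreement between probe sets and not between animals.

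More of the mitotic genes read lower than higher on the FGF18 array, and every difference was under 1.5-fold. Of the 40 genes 27 were lower, 12 were higher and Cdc20 was equal, and the median difference was -0.10, with a range from -0.48 for Kif4 to 0.49 for Sgo1. Over the 11090 genes at or above the median level, where 39 of the 40 lie, 38% were lower and 59.4% higher, and the median was 0.07. More of the mitotic genes thus lay on the lower side, and more genes of that level on the higher side. A log2 difference of 0.322, a fold of 5 to 4, was reached by 6 of the 40 genes on the lower side, against 11.5% of the genes at or above the median level. On the higher side 4 of the 40 reached it, against 17.4%. At 1.5-fold the counts were 0 lower and 0 higher, where 4.63% and 3.64% of those genes lay. With the trend of difference on level subtracted, 33 of the 40 genes were lower and 7 higher, the median was -0.17, and Kif11, Tpx2, Ttk, Mad2l1 and Kif23, slightly higher without that step, and Cdc20 came to lie at or just below 0. The 10 genes past 0.322 and Mki67 were the 11 whose difference was larger than the spread between probe sets. Whether the mitotic genes differ from other genes beyond the spread between animals was not tested.

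**Figure D1:**
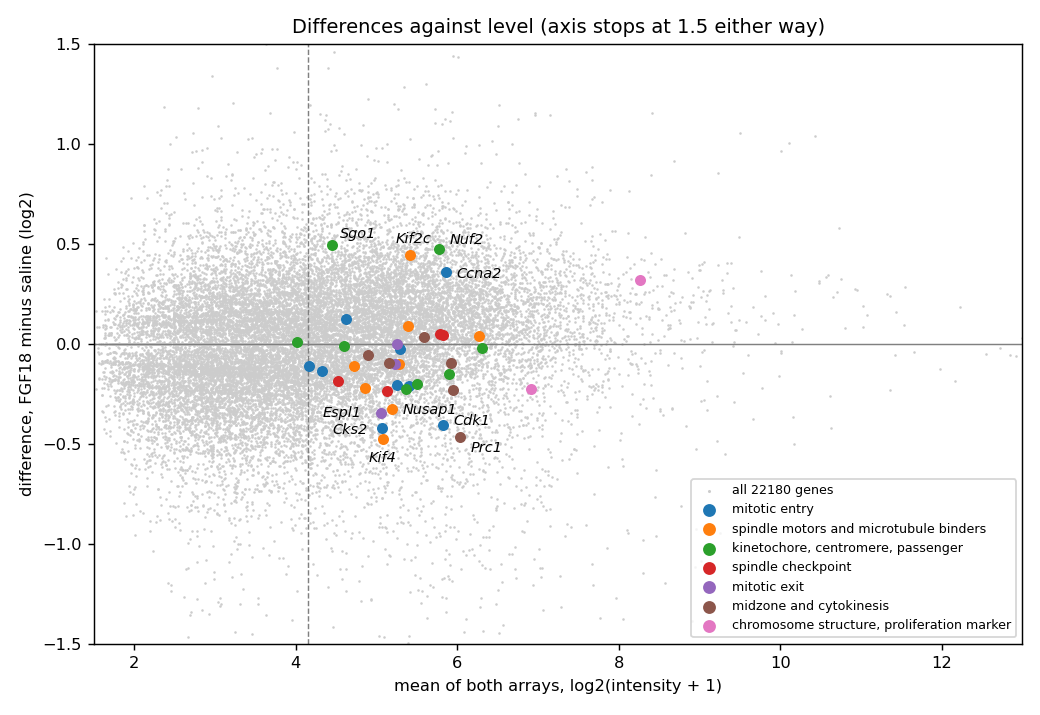
Difference, FGF18 minus saline in log2, against the mean of both arrays in log2(intensity + 1), for all 22180 genes (grey) and the 40 mitotic genes, coloured by role. The dashed line marks the median level of 4.15, the 10 labelled genes are those past 0.322 in either direction, and 91 genes lie beyond the axis limits of 1.5. The mitotic genes sit mostly just below 0, between -0.48 and 0.49.

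Epidermal and follicle keratins were above the median level of all genes, and the markers of some layers differed by more than any mitotic gene. All 7 suprabasal and cornified epidermis markers were lower, with summed intensities of 3692 with FGF18 and 14309 with saline, and all 7 inner root sheath markers were higher, with sums of 6130.02 and 3083 on the FGF18 and saline arrays. All 6 measured hair matrix markers were higher, with sums of 436 with FGF18 and 269.5 with saline, although Shh read 11.1 and 10.1, under both arrays' medians. The 5 measured hair shaft markers on the higher side and 1 on the lower summed to 799 with FGF18 and 514 with saline. Of 5 basal epidermis and outer root sheath markers 4 were higher, but Krt14 stood at -0.81 and the sums were 1289.5 with FGF18 and 1326 with saline. Fibroblast, muscle and endothelial markers were lower for 3 of 5, 4 of 5 and 2 of 3 genes, with sums of 803, 3242 and 58.5 with FGF18 against 825, 3559 and 72.4 with saline. Adipocyte markers were lower for 2 of 3 genes, with sums of 591 with FGF18 and 422 with saline. Most of these sums was Fabp4 (545 with FGF18, 371 with saline, 0.55), the only adipocyte marker on the higher side. Leukocyte markers were lower for 2 of 6 genes, with sums of 155 with FGF18 and 122 with saline, and Adgre1 and Cd79a were under both arrays' medians. The part of cell makeup in the mitotic gene differences was not tested.

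The members that stood farthest from 0 fell on both sides. The chromosome-bound motor gene Kif4 read 27.8 with FGF18 and 39.0 with saline, a difference of -0.48. Prc1, which encodes the protein that bundles midzone microtubules, read 54.6 with FGF18 and 75.9 with saline, a difference of -0.47. Cks2, a small partner of cyclin-dependent kinases, and Cdk1 itself followed at -0.42 and -0.40. In the other direction Sgo1, the gene of the shugoshin that guards cohesion at centromeres, read 24.9 with FGF18 and 17.4 with saline, a difference of 0.49. Nuf2, a kinetochore subunit gene, read 63.2 with FGF18 and 45.2 with saline, a difference of 0.47, and Kif2c, whose product takes apart microtubule ends, read 48.9 and 35.7 on the FGF18 and saline arrays, a difference of 0.44. Mki67, which encodes the proliferation marker Ki-67, read 343 with FGF18 and 275 with saline, and its difference of 0.320 lay just under the 0.322 line, while Nusap1 at -0.323 lay just past it. With a pseudocount of 16 in place of 1, only Kif4, Prc1, Nuf2 and Kif2c of the 10 genes past 0.322 stayed past it.

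**Figure D2:**
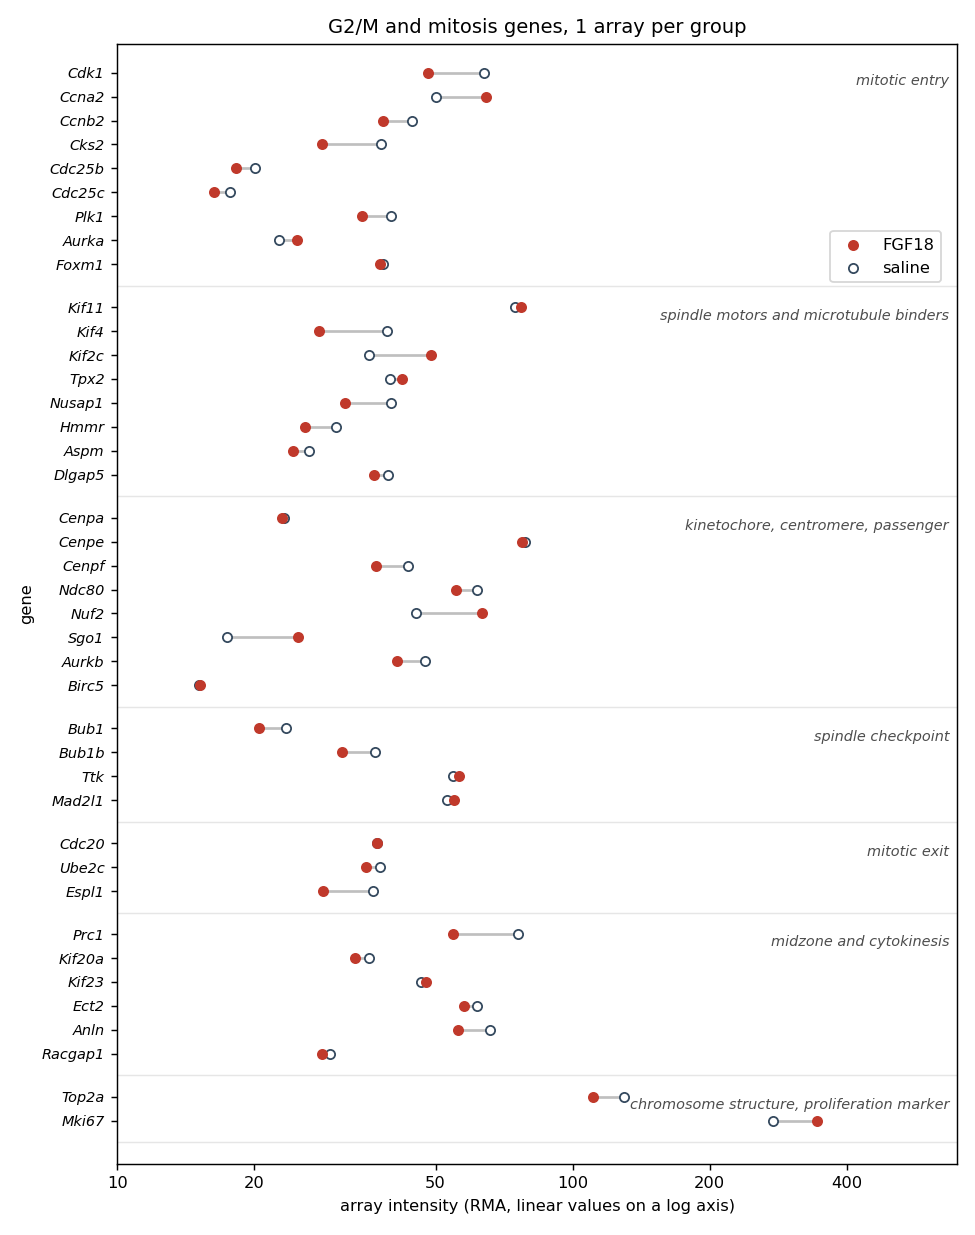
Array intensity of each of the 40 genes on a log axis, by role, with the FGF18 array as filled points and the saline array as open points, 1 array each. Filled points lie left of open ones for 27 genes, and the longest gaps to the right are those of Sgo1, Nuf2, Kif2c and Ccna2.

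Promoters of mitotic genes are known for a pair of elements. CCAAT boxes bind the factor NF-Y, and the cell cycle genes homology region (CHR), with a core of TTTGAA, binds the MuvB complex, which represses these genes in resting cells as part of DREAM and activates them in G2 together with B-MYB and FOXM1. RefSeq promoter sequences (build GRCm38.p6, 250 bases before to 50 after a start site) matched 33 of the 40 genes, and 2 of these, Prc1 and Ect2, had 2 starts. The windows from base -65 to base 35 are shown for the members named above, because they let the elements be read beside the differences. Capitals mark CCAAT boxes and CHR cores on either strand. A box reads ATTGG when it lies on the other strand, and the core was also searched in the form TTCGAA. The windows are Kif4 at chrX:100626000-100626099 (plus strand), Prc1 at chr7:80294386-80294485 (plus), Cks2 at chr13:51645167-51645266 (plus), Cdk1 at chr10:69352878-69352977 (minus), Nusap1 at chr2:119618233-119618332 (plus), Mki67 at chr7:135716345-135716444 (minus), Kif2c at chr4:117178738-117178837 (minus), Nuf2 at chr1:169531430-169531529 (minus) and Sgo1 at chr17:53689281-53689380 (minus).
Kif4: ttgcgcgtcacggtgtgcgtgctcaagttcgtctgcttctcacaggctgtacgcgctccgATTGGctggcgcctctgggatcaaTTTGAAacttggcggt
Prc1: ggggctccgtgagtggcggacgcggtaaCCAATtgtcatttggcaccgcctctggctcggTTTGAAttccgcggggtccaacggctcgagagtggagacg
Cks2: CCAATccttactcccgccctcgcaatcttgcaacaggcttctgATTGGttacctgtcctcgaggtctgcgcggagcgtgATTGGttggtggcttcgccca
Cdk1: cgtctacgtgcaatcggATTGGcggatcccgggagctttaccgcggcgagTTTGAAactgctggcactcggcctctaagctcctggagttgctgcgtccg
Nusap1: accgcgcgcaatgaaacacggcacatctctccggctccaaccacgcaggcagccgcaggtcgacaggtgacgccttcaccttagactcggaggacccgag
Mki67: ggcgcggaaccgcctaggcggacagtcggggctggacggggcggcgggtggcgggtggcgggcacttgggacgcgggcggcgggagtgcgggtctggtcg
Kif2c: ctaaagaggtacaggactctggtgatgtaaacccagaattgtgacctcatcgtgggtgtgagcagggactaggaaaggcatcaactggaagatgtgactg
Nuf2: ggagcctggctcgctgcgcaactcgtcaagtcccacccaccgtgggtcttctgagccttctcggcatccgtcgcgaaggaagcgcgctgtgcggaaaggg
Sgo1: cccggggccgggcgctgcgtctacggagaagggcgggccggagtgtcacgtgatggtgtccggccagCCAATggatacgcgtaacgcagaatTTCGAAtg
The lower genes Kif4, Prc1 and Cdk1 each hold a CCAAT box, in either orientation, followed by TTTGAA within this window, and Cks2 holds 3 CCAAT boxes and no CHR core. Nusap1, also lower, holds neither element in the window or in the whole 300 bases. Among the printed higher genes Sgo1 holds a CCAAT box and the other form of the core, while the windows of Nuf2, Kif2c and Mki67 hold neither element. Of members not printed, Espl1 (-0.35), Cdc20 (equal) and the slightly higher Kif11 (0.04), Ttk (0.05) and Kif23 (0.04) hold both elements in this window. Aurka (0.12) holds CCAAT boxes and a core that starts at base 33 and runs past the window. Mad2l1 (0.05) and Birc5 (0.01) hold neither. Mki67 has 2 CHR cores and 3 CCAAT boxes farther upstream, and Kif2c has 1 core there. The listed starts of Kif2c and Sgo1 lie 3852 and 2016 bases inside the annotated gene, so other starts of these genes were not read here. Among the other members, listed starts lie 585 bases from the annotated one for Aspm, 512 for Cdc25b, 399 and 375 for Ect2 and 316 for Aurka.

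Over the whole 300 bases and both strands, with overlapping matches each counted, 27 of 33 members (81.8%) held a CHR core in either form, against 21.7% of the 27025 genes with a promoter sequence. CCAAT was found in 26 of 33 (78.8%), against 41.1% of all, and 24 members held both elements, against 9.65% of all. The motif TTTAAA, a known variant of the CHR, was in 9 of 33, against 14.9%. The CHR core also lay close to the start: 25 of 33 members (75.8%) had it centred within 50 bases, against 6.35% of all genes. Of DNA replication and G1/S genes, 2 of 28 (7.14%) had it there, and of a wider list of other mitosis genes, given below, 24 of 61 (39.3%). Over the whole 300 bases 33 of 61 other mitosis genes (54.1%) and 6 of 28 replication genes (21.4%) held a core. CCAAT was in 34 of 61 (55.7%) and 18 of 28 (64.3%). The CHR core was thus also frequent in other mitosis genes, and CCAAT in both lists. A match is only a run of letters and does not show that a factor binds.

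Differences were set beside the CHR core both near the start and over the whole window. The 25 members with a core near the start had a median of -0.15, 19 on the lower and 5 on the higher side. Of the 8 without, Cks2, Kif2c, Nusap1, Cenpe, Nuf2, Birc5, Mad2l1 and Mki67, 3 lay lower and 5 higher, and their median was 0.03. Kif2c and Mki67 of these hold a core farther upstream. The grouping rests on the listed starts, which for Kif2c, without a core near it, and Sgo1, with one, lie far inside the gene. Over the whole 300 bases the 27 with a core had a median of -0.14, 19 lower and 7 higher, and the 6 without had a median of -0.0056, 3 lower and 3 higher. The 61 other mitosis genes with a promoter sequence had a median of -0.09 for 24 with the core near the start and 0.08 for 37 without it. Over genes at or above the median level the corresponding medians were 0.05 for 385 genes with it and 0.08 for 8326 without. These medians are descriptions of 2 arrays, the ranges overlap (from -0.48 to 0.49 with the core and from -0.42 to 0.47 without it among members), and no test was made.

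**Figure D3:**
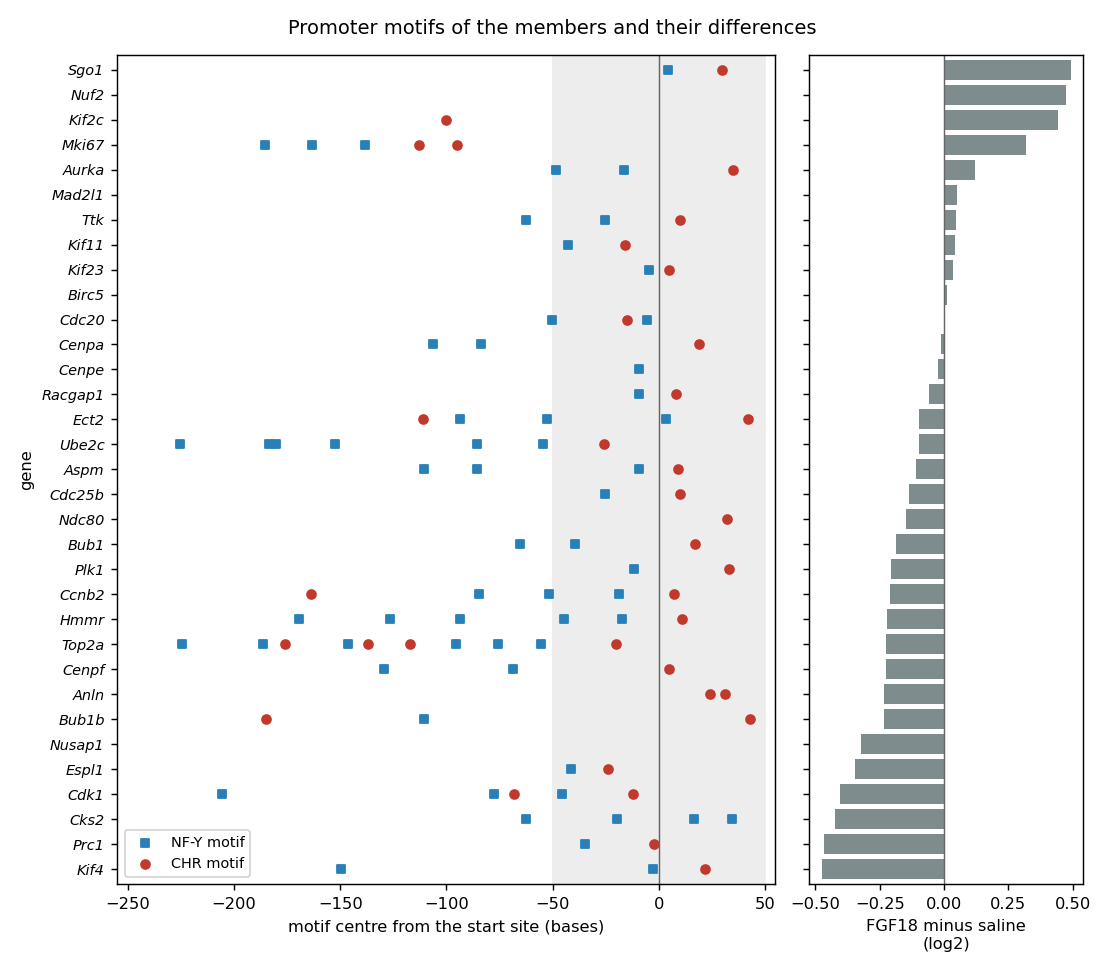
Left, centre of each NF-Y motif (CCAAT box) and CHR motif (core in either form) in bases from the start site for the 33 members with a promoter sequence, at the first listed start where there are 2, with the stretch within 50 bases shaded. Right, bars of the difference, FGF18 minus saline in log2, in the same order. CHR motifs fall in the shaded stretch for 25 genes, and 3 of the 4 genes at the top have none there.

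Among the genes of mitotic entry 7 of 9 were lower, with a median of -0.14. Cdk1, the kinase that drives mitosis, read 48.1 with FGF18 and 63.9 with saline, a difference of -0.40. Its partners did not all lie on the same side. Ccnb2, a B-type cyclin, read 38.3 with FGF18 and 44.4 with saline (-0.21), but Ccna2, the cyclin A gene that acts in S phase and G2, read 64.6 with FGF18 and 50.2 with saline (0.36). Ccnb1, the other main mitotic cyclin, was not analysed here. Cks2 was read by 4 clusters, 3 of them with identical values of 32.7 with FGF18 and 45.2 with saline, and the other at 17.6 and 22.3, so all 4 were lower. The CDC25 phosphatase genes Cdc25b (18.2 with FGF18, 20.1 with saline) and Cdc25c (16.3 with FGF18, 17.7 with saline) differed by -0.14 and -0.11, less than the spread between probe sets. The Polo-like kinase gene Plk1 read 34.5 with FGF18 and 39.9 with saline (-0.21). The centrosomal kinase gene Aurka read 24.8 with FGF18 and 22.7 with saline (0.12), and its activator gene Tpx2 lay on the same side, at 42.2 with FGF18 and 39.6 with saline (0.09). The transcription factor gene Foxm1, which activates many genes of G2, was nearly equal at 37.7 with FGF18 and 38.4 with saline (-0.03).

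Spindle motors and microtubule binders had 5 of 8 genes lower and a median of -0.11. Kif11, the motor that pushes spindle poles apart, was nearly equal at 77.0 with FGF18 and 74.8 with saline (0.04). Kif4 and Kif2c, already given, stood at opposite ends. Nusap1, which stabilizes spindle microtubules, read 31.7 with FGF18 and 39.9 with saline (-0.32), and a cluster named for both Oip5 and Nusap1, left out here, read 8.90 on both arrays. Hmmr, a spindle pole protein gene that is also known as a hyaluronan receptor, read 25.8 with FGF18 and 30.2 with saline (-0.22). The spindle pole gene Aspm (24.3 with FGF18, 26.3 with saline) and the spindle assembly gene Dlgap5 (36.6 with FGF18, 39.3 with saline) differed by -0.11 and -0.10.

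The kinetochore, centromere and passenger genes lay on both sides, 5 of 8 lower and 3 higher, with a median of -0.02 but a mean of 0.05. Cenpa, the centromeric histone gene, was nearly equal at 23.0 with FGF18 and 23.2 with saline (-0.01), as was the kinetochore motor gene Cenpe at 77.5 and 78.7 on the FGF18 and saline arrays (-0.02). Cenpf read 37.0 with FGF18 and 43.4 with saline (-0.23). Subunits of the NDC80 complex, which grips microtubule ends, lay on different sides. Ndc80 read 55.4 with FGF18 and 61.6 with saline (-0.15) while Nuf2, its direct partner, stood at 0.47, and of the remaining subunits Spc24 stood at 0.14 and Spc25 read 56.7 on both arrays. The chromosomal passenger complex was divided as well. Its kinase gene Aurkb read 41.2 with FGF18 and 47.5 with saline (-0.20), and Cdca8, which encodes borealin, stood at -0.19. Birc5, the survivin gene, read 15.2 with FGF18 and 15.1 with saline (0.01) and was the only member under the median level of all genes. The scaffold gene Incenp read 49.5 with FGF18 and 32.5 with saline, a difference of 0.59. All but Cks2 of the 40 genes were read by 1 cluster, so a split between partners cannot be checked against a further probe set.

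Spindle checkpoint genes split evenly, 2 lower and 2 higher. Bub1 read 20.5 with FGF18 and 23.4 with saline (-0.18), and Bub1b, the BUBR1 gene, read 31.2 with FGF18 and 36.9 with saline (-0.23). The checkpoint kinase gene Ttk read 56.4 with FGF18 and 54.6 with saline (0.05), and Mad2l1, whose product binds and restrains CDC20, read 54.9 with FGF18 and 53.0 with saline (0.05). Bub3, a further part of that inhibitory complex, stood at 0.22. All 4 member differences were under the spread between probe sets. At mitotic exit, Cdc20, the activator of the anaphase-promoting complex, read 37.2 on both arrays, an exact tie that 4.90% of all clusters also showed. Ube2c, which encodes that complex's ubiquitin-conjugating enzyme, read 35.2 with FGF18 and 37.8 with saline (-0.10). Espl1, the gene of separase, which cuts cohesin, read 28.4 with FGF18 and 36.4 with saline (-0.35).

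In the group of midzone and cytokinesis genes 5 of 6 were lower, with a median of -0.10. Kif20a, a midzone motor gene, read 33.3 with FGF18 and 35.7 with saline (-0.10). Centralspindlin, which anchors the division furrow, is built from the products of Kif23 and Racgap1, and both were nearly equal. Kif23 read 47.6 with FGF18 and 46.4 with saline (0.04), and Racgap1 read 28.1 with FGF18 and 29.3 with saline (-0.06). The furrow genes Ect2 (57.7 with FGF18, 61.7 with saline), and Anln, the anillin gene (55.9 with FGF18, 65.9 with saline), differed by -0.10 and -0.23. Of the remaining pair, Top2a, which encodes the topoisomerase that untangles sister chromatids, read 111 with FGF18 and 129.7 with saline (-0.23). Top2a was also named, together with Taf1d, for 2 clusters left out here, which read 149 and 179.6 with FGF18 against 136 and 178 with saline and so lay on the other side. With those clusters counted as Top2a its difference was -0.03. Mki67, the other proliferation marker of the list, stood at 0.32.

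**Figure D4:**
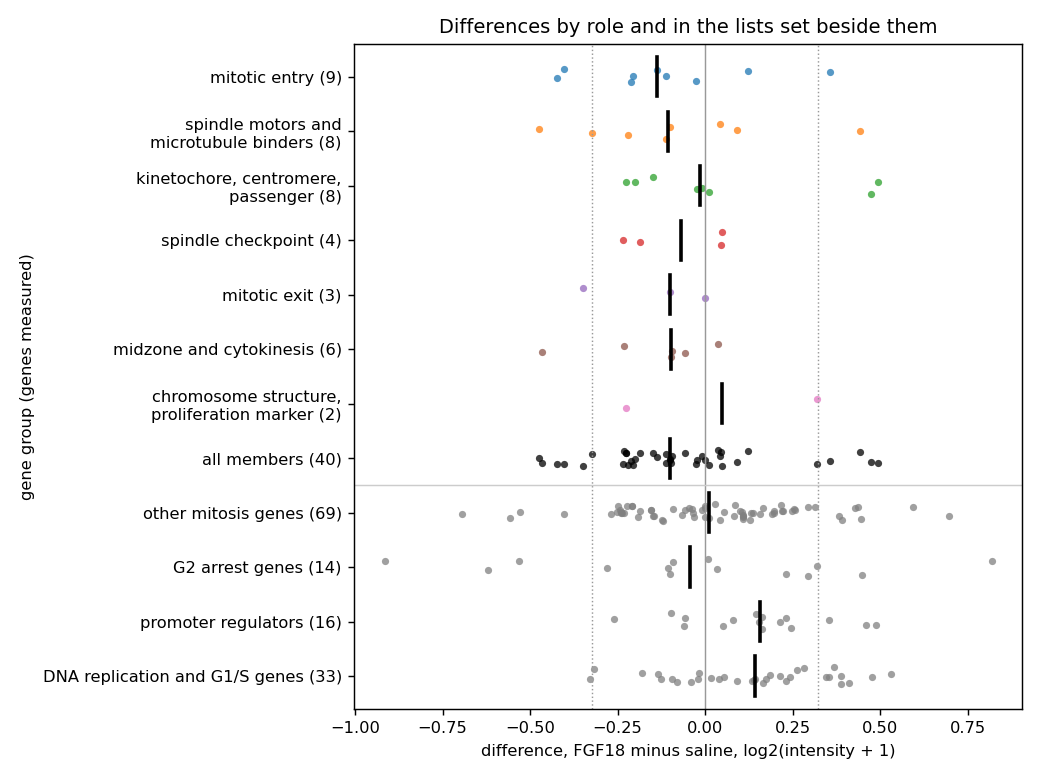
Difference, FGF18 minus saline in log2(intensity + 1), of each gene (points) with the median of each group (bars), for the roles of the 40 members above the grey line and for 4 other lists below it. Dotted lines mark 0.322 in either direction. Medians of the member groups lie between -0.14 and 0.05, the highest for Top2a and Mki67 (-0.062 with the level trend subtracted), and those of the replication and promoter regulator lists at 0.14 and 0.16.

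A wider set of mitosis genes was nearly evenly split. Of 69 measured genes of condensin, the rest of the kinetochore, the spindle and the anaphase-promoting complex, 35 read higher and 31 read lower. Their median was 0.01, or -0.062 with the trend on level subtracted, and 7 lay past 0.322 on the higher and 4 on the lower side. Among the 11090 genes of median level or brighter, 59.4% read higher and 38% lower, with a median of 0.07. Past 0.322 lay 17.4% of those 11090 on the higher and 11.5% on the lower side. The lowest among the brighter genes were the cytokinesis motor gene Kif20b (37.8 with FGF18, 56.0 with saline, -0.56), Depdc1a (14.5 with FGF18, 21.4 with saline, -0.53) and the microtubule polymerase gene Ckap5 (-0.27). Incenp, the centrosome kinase gene Nek2 (0.44) and the anaphase-promoting complex gene Anapc5 (0.44) were the highest of the brighter genes. By part, spindle genes had a median of -0.04 (13 of 23 lower), condensin 0.00, the anaphase-promoting complex 0.04, centromere and kinetochore 0.08 and passenger and checkpoint genes 0.16.

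DNA replication and G1/S genes, which act before mitosis in the cycle, lay more often on the higher side, as did most genes of that level. Of 33 measured genes 23 read higher and 10 read lower, the median was 0.14, and past 0.322 lay 8 on the higher side and 1 on the lower. At or above the median level 59.4% of all genes were higher and 17.4% past 0.322 on that side, with a median of 0.07, and with the level trend subtracted the replication median was 0.083. Chaf1b, a histone chaperone subunit gene (0.53), the helicase gene Mcm7 (0.48) and the licensing factor gene Cdt1 (0.41) were highest at that level. Gmnn, whose product geminin inhibits CDT1 and is present from S phase to mitosis, was the lowest, at 24.1 with FGF18 and 30.5 with saline (-0.33), followed among the brighter genes by Gins3 (-0.18) and the thymidine kinase gene Tk1 (-0.14). The replication and mitotic lists were read on the same 2 arrays, and the difference between their medians was not tested.

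Genes listed for G2 arrest were spread widely, with 7 of 14 measured genes higher and 7 lower. Their median was -0.04, or -0.11 with the level trend subtracted. Of all genes with at least the median level, 59.4% read higher and 38% lower, with a median of 0.07. The stress kinase gene Plk3 read 37.3 with FGF18 and 71.1 with saline (-0.91), Sfn, whose human counterpart encodes a 14-3-3 protein that keeps CDK1 in the cytoplasm, read 37.5 with FGF18 and 58.1 with saline (-0.62), and Gadd45b stood at -0.53. Gtse1, a microtubule-binding gene of G2 that is on the list although its product restrains p53, read 50.2 with FGF18 and 28.0 with saline (0.82), the checkpoint kinase gene Chek2 stood at 0.45 and Gadd45g at 0.32. Wee1, the kinase that keeps CDK1 inactive, was nearly equal at 20.4 with FGF18 and 21.8 with saline (-0.09), the checkpoint kinase gene Chek1 stood at -0.28, and Cdkn1a, the p21 gene, read 227 with FGF18 and 193 with saline (0.23). Pkmyt1 and Gadd45a were not analysed here.

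Of 16 genes for regulators of mitotic promoters 12 read higher and 4 read lower, and their median was 0.16, or 0.069 with the level trend subtracted. Genes at or above the median level, 59.4% of them higher, had a median of 0.07. The highest were Tfdp2 (0.49), E2f4 (0.46) and E2f5 (0.35), which encode the E2F and DP proteins of repressive complexes, and the lowest among brighter genes were the NF-Y subunit gene Nfya (-0.26) and the MuvB genes Lin54 (-0.10) and Lin9 (-0.06). Mybl2, the B-MYB gene, read 9.86 with FGF18 and 10.3 with saline, both under the median of all clusters on that array, so no fold is given.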

How the data were processed

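Skin RNA of 1 FGF18 and 1 saline sample was measured on 2 arrays, with groups taken from the sample labels. Expression Console (Affymetrix) and RMA are named in the submitters' processing notes, with no version given in the sources used here. Each deposited intensity value is on a linear scale, judged from their range of 1.44 to 11532 with FGF18 and 1.39 to 11488 with saline. Differences of log2(intensity + 1) were computed from the deposited values. Arrays have no read depth, and 1 array per group limits the precision.

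The platform annotation gave 1 symbol to 23521 of 41345 clusters, and these were averaged per symbol in log2 to 22180 genes. Clusters with several symbols (1814) or none (16010) were left out. The 40 members and all lists were chosen with earlier results of these data known. Named genes were all members, the 3 highest and 3 lowest brighter genes of each other list, and Wee1, Chek1, Cdkn1a, Gadd45a, Mybl2 and Ccnb1. Incenp, Spc24, Spc25, Cdca8 and Bub3, as partners of members, and Krt14 and Fabp4 were chosen after their values were seen, as were the printed promoters. The trend of difference on level was a lowess fit (span 0.3, statsmodels 0.14.6, Python 3.11.15). Promoters came from RefSeq tables and were searched as exact strings. The averaging of clusters per gene and the trend subtraction were tested on simulated data, and the promoter search and the fold counts were not. Alternatives are given in the closing section.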

Additional observations from a re-analysis of the deposited data

How the results depend on the processing

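The median of the 40 mitotic genes was negative under all 10 alternatives, from -0.17 with the level trend subtracted to -0.07 with a pseudocount of 16. Under the 8 alternatives that apply to that count, 27 to 33 genes were lower. Several alternatives could hardly move these results. Centring subtracted a median of 0. Taking the brightest cluster or counting identical clusters once could change only Cks2, since 39 members had 1 cluster. Clusters with several symbols changed only Top2a. With the trend subtracted 7 in place of 12 were higher, and the genes at or above the median level then split into 50.3% lower and 49.7% higher. Counts past 0.322 were 2 higher and 2 lower with a pseudocount of 16, and 3 and 8 with the trend subtracted. At 1.5-fold they were 0 and 0. Sign changes came with the trend subtracted for the median of Top2a and Mki67 (-0.062) and of the other mitosis genes (-0.062), and with a mean in place of the median for kinetochore genes (0.046), and the cause was not tested. The trend also moved the medians of the replication genes to 0.083, the promoter regulators to 0.069 and the G2 arrest genes to -0.11. All 280 member values under 7 alternatives lay within 0.26 of the main value, but centring and the cluster choices left nearly all of theirs unchanged. Counting identical clusters once was added after seeing the data and gave Cks2 -0.39. No paired analysis was possible because each group has 1 array, and for the same reason no array could be left out.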
